A study of Mus musculus with 6 samples.

Results

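The collectins and lectin complement proteases are a family of secreted or membrane-bound sugar-binding proteins and the serine proteases that travel with them. They were taken by gene name from the deposited table of 26018 genes: the soluble collectin genes Colec10, Colec11, Mbl1 and Mbl2, the membrane collectin gene Colec12, and the protease genes Masp1 and Masp2. All 7 genes were listed, and 5 of them passed the filter on low reads that left 16314 genes for testing. The family was chosen by the reads of Colec10, which had none in any knockout library, so its values are given as a description with no test. Its 6 relatives were taken by name.

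Collectins pair a collagen-like stalk with a calcium-dependent lectin domain that recognises sugars on microbes and damaged cells. In plasma, mannose-binding lectins and the collectins encoded by Colec10 and Colec11 carry the proteases encoded by Masp1 and Masp2, and once bound to a sugar surface these cleave complement C4 and C2 to start the lectin pathway. The liver is the main source of most of these proteins, and human COLEC10, COLEC11 and MASP1 are also known for craniofacial development, since loss of any of them causes 3MC syndrome.

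RNA was sequenced from whole uteri of 6-week-old female mice matched for body weight. The control group held 3 untreated animals with floxed Tcf21 (Tcf21f/f), and the conditional knockout (cKO) group held 3 untreated animals with the deleted alleles (Tcf21d/d). The sources used here name neither the driver of the deletion nor the strain. Values below are normalised read counts, that is, reads on a gene divided by 1 size factor for the library, and each library came from 1 animal.

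Library totals ran from 14584450 to 16579573 reads on genes. Tcf21, which encodes a transcription factor of mesenchymal cells, was measured at 341.4, 151.9 and 144.1 in the controls (replicates 1 to 3, in that order here and below) and at 26.02, 0 and 0 in the cKO animals. The uterine genes Hoxa10, Hoxa11, Pgr and Esr1 had reads in all 6 libraries, with group differences given beside Colec10, and 5 skeletal muscle markers took 1.66 to 3.81% of control reads and 3.60 to 5.73% of cKO reads. Control replicate 1 stood apart, with 1.51% of its reads on 12 hepatocyte marker genes (albumin, apolipoproteins, fibrinogen chains and others) against 0.00167 to 0.00997% in the other 5 libraries. Fitted changes of the members are given with and without it.

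Colec10, which encodes a secreted collectin first known from liver, had reads in every control library. The gene (ENSMUSG00000038591) lies on chromosome 15 at 54410774 to 54466358 on the plus strand (GRCm38), with 6 exons in 1 annotated transcript of 4587 bases. Colec10 had 55, 267 and 392 reads in control replicates 1 to 3, which are normalised counts of 67.1, 240.0 and 348.7, and 0 reads in each cKO library. A count of 0 allows normalised values of up to 2.79, 2.93 and 3.31 in cKO replicates 1 to 3, taking 3 reads as the limit. The lowest control lay at least 20.2-fold above the highest of those limits. All 3 cKO libraries thus lay below the controls, as they did for 10.5% of all genes tested.

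Without control replicate 1, which had the lowest Colec10 value of the controls and the highest hepatocyte share, the control mean of Colec10 rose from 218.6 to 294.3, at least 97.8-fold above the mean limit of the cKO libraries. The fitted log2 fold change of Colec10 was -7.48 ± 0.78 (SE, n = 3 per group) and depends on the added 1, since it was -5.20 with 5 added and -10.80 in edgeR. Without control replicate 1 it was -8.18. No exon of another gene overlaps Colec10, and no transcript of another gene shares 100 bases at 95% identity with it. In whole tissue, fewer cells of a type and less RNA per cell cannot be told apart.

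Other tissue markers also differed between the groups. Of 5 tested autonomic and enteric neuron genes, Snap25 and Syt1 fell (limma, Benjamini-Hochberg adjusted p = 0.0349 and 0.0351) and 3 did not pass. Over all genes tested, limma called 1.16% in either direction. Neither Snap25 nor Syt1 passed in edgeR or with control replicate 2, control replicate 3 or any 1 cKO replicate left out. The summed share of that list was 0.0018, 0.00336 and 0.021% in control replicates 1 to 3, the same order as the Colec10 values. In the cKO libraries it was 0.000987 to 0.00165%. Stmn2, which did not pass, held most of these reads in control replicate 1 and in each cKO library. It had 146, 248 and 1311 reads in the controls and 238, 145 and 117 in cKO replicates 1 to 3. All 6 smooth muscle markers fell, and their summed share was 0.821 to 1.14% in controls and 0.0602 to 0.0814% in cKO libraries, with no marker at 0. Only 5 of the 6 passed without control replicate 2 (Actg2 lost) or without cKO replicate 3 (Cnn1 lost). None of the 4 uterine genes Hoxa10, Hoxa11, Pgr and Esr1 passed limma. All 4 had log2 fold changes below 0 (median -1.56) and 3 had an unadjusted p under 0.05, as did 13.7% of all genes tested. Hoxa11, a homeobox gene of uterine stroma, was at 896.2, 470.0 and 67.6 in the 3 controls and at 36.2, 35.1 and 3.31 in the 3 cKO libraries. The 5 uterine epithelium genes were likewise all below 0 (median -1.67) with no call and 2 at an unadjusted p under 0.05. Of the 5, 3 were highest in control replicate 1, with Krt18 at 2654 there and at 126.7 and 72.1 in the other controls. Krt19 and Epcam were highest in control replicate 2, as were the intestinal genes Vil1, Fabp2, Cdx1 and Lgals4. Which tissue the reads of these epithelial genes came from was not tested. Without control replicate 3, limma called 3 of the 4 uterine and 3 of the 5 epithelium genes lower, among 235 lower genes in all. The summed share was 0.0121 to 0.0357% in controls and 0.00603 to 0.0122% in cKO libraries for the uterine genes, and 0.00287 to 0.0321% and 0.0023 to 0.00437% for the epithelium genes. Both lists were highest in control replicate 1, the control with the least Colec10. The 5 hepatic stellate cell genes, a liver cell type that expresses Colec10, had a summed share of 0.0199 to 0.029% in controls and 0.0211 to 0.0229% in cKO libraries. Most of those reads in each library were on Ecm1, so the sum says little about the other genes. Lrat had 44, 13 and 6 reads in the controls and 7, 1 and 0 in cKO replicates 1 to 3. Vipr1 had 92, 42 and 3 against 5, 13 and 11. The log2 fold changes of Reln, Hgf and Ecm1 were -0.35, 0.004 and -0.009. The part of these cell types in the Colec10 difference was not tested.

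**Figure D1:**
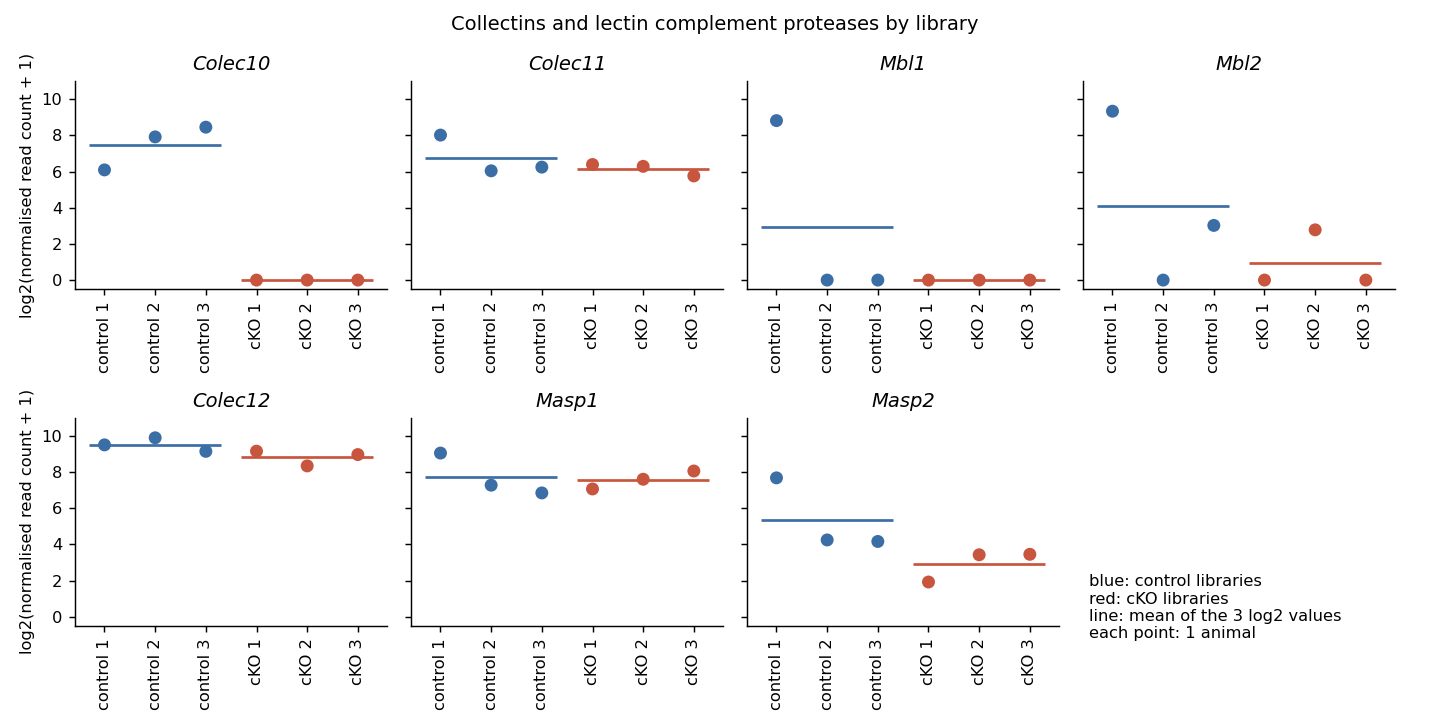
Normalised read counts of the 7 genes on a log2(value + 1) axis, 1 panel per gene and 1 point per library (blue control, red cKO), with a line at the mean of the 3 log2 values of each group. Colec10 is at 0 in all 3 cKO libraries and at 67.1 to 348.7 in controls, whereas Mbl1 and Mbl2 are high in control replicate 1 alone.

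Few genes had the on-and-off pattern of Colec10. With 0 reads in all 3 cKO libraries and at least 10 in each control, 10 of 26018 genes qualified (0.0384%), and 7 of them were protein-coding. Of the 26018 genes, 38 qualified at a minimum of 5 reads and 1, Colec10 itself, at a minimum of 20. Snap25 missed that minimum with 16 reads in its lowest control. Colec10 was chosen for having no cKO read, so these counts are a description and no test. Those with the highest control means included Snap25, a synaptic vesicle fusion protein (270.2), Colec10 (218.6), the nociceptin precursor gene Pnoc (42.5) and the intestinal cadherin gene Cdh17 (42.1). Snap25 was less even than Colec10 among the controls, with its highest value 35.5 times its lowest against 5.20 times for Colec10.

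Across the 6 libraries, the protein-coding genes whose log2(value + 1) followed Colec10 most closely included Nptx1, Nap1l1, Cacna1h, Raver2 and Flna. Their Pearson's r with Colec10 ran from 0.994 for Flna to 1.00 for Nptx1, over 14664 genes compared. With 6 libraries in 2 separate groups such a coefficient mostly restates the group difference, and 438 genes exceeded 0.9. The neuronal pentraxin gene Nptx1 had no cKO read, with control values of 10.97, 22.5 and 30.2. The other 4 had reads in every cKO library, from the RNA-binding protein gene Raver2 at 24.2 to 29.8 against 99.98 to 150.4 in controls to the actin cross-linker gene Flna at 6850 to 7590 against 24321 to 42381.

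Colec11 encodes collectin kidney, the closest partner of the Colec10 protein, with which it forms mixed oligomers in plasma. The gene occupies bases 28594173 to 28623377 of chromosome 12, minus strand. Colec11 was at 257.3, 64.7 and 74.7 in the 3 controls and at 82.7, 77.0 and 53.0 in the 3 cKO libraries. Control replicate 1 was high and the other 5 libraries overlapped. The log2 fold change of Colec11 was -0.62 ± 0.52 (SE, 3 animals per group). Its 95% confidence interval ran from -1.79 to 0.54, and limma gave an adjusted p of 0.658.

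Without control replicate 1 the log2 fold change of Colec11 was 0.003, with an interval from -0.86 to 0.86 and a limma adjusted p of 0.998. How far Colec10 and Colec11 differ is given as a description, since Colec10 was chosen for its values. Per 1000 bases of transcript, the 3 controls had 14.6, 52.3 and 76.0 for Colec10 and 158.7, 39.9 and 46.1 for Colec11. In the cKO libraries Colec11 stood at 51.0, 47.5 and 32.7 on the same scale, while Colec10 was at 0.

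The mannose-binding lectin genes Mbl1 and Mbl2 encode the plasma sensors of the lectin pathway, made by hepatocytes. Mbl1 lies on chromosome 14 at 41151458 to 41159601 and Mbl2 on chromosome 19 at 30232928 to 30239685, both on the plus strand. Neither gene passed the filter on low reads, because reads were concentrated in 1 library. Mbl1 had 368 reads (448.7) in control replicate 1 and 0 in each of the other 5 libraries. Mbl2 had 528 reads (643.8) in control replicate 1, 8 in control replicate 3, 6 in cKO replicate 2 and 0 in the other 3. The group means of Mbl2, 217.0 in controls and 1.95 in cKO animals, rest on control replicate 1, and without it the control mean was 3.56.

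Both genes were high in control replicate 1 alone, the library richest in hepatocyte reads. In the other libraries with Mbl2 reads, Mbl1 had none. As a description, the RefSeq promoter windows (GRCm38.p6, 250 bases before to 50 after the start) were compared. Shared regulation of the pair was not tested. Of the 7 genes, Colec11, Masp2, Mbl1 and Mbl2 had an entry. The longest run of identical letters between the Mbl1 and Mbl2 windows was 13 bases, against 7 to 10 for the other 5 pairs of entries. It is shown in capitals with 25 bases on either side, on the plus strand, 5′ to 3′. The first covers chr14:41151408-41151470 and the second chr19:30232846-30232908, and the run begins 23 and 57 bases upstream of the annotated starts.
Mbl1: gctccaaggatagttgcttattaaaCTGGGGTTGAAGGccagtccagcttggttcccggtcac
Mbl2: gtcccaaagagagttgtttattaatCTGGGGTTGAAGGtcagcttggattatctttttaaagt
The run CTGGGGTTGAAGG, searched on both strands, occurred in 3 of 32851 promoter windows (0.00913%), those of Mbl1, Mbl2 and Slc25a53. The run was picked from the Mbl1 and Mbl2 windows, so their hits were fixed in advance. Its share is no test, since the share of other runs of 13 bases was not counted. A match of letters is a description and not a binding site.

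Hepatocyte transcripts ran beside these values. All 12 hepatocyte markers had their highest value in control replicate 1, and none was at 0 there. Alb had 120075 reads in control replicate 1, 198 and 677 in control replicates 2 and 3, and 0, 690 and 78 in cKO replicates 1 to 3. The libraries with reads of Mbl2 were the 3 with the most Alb reads. In cKO replicate 1, where 7 of the 12 markers were at 0, Mbl1 and Mbl2 were at 0 as well. Colec10 went the other way, with its lowest control value in the library richest in hepatocyte reads. How far liver RNA accounts for the values of the members in control replicate 1 was not tested.

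**Figure D2:**
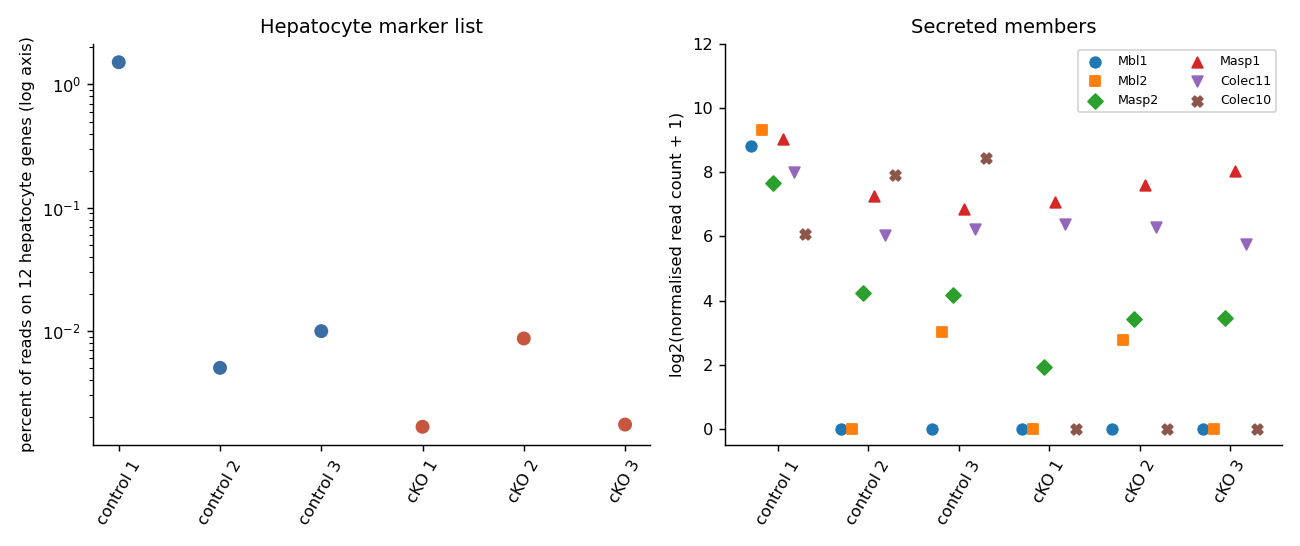
Left, percent of reads on 12 hepatocyte genes in each library on a log axis. Right, log2(normalised read count + 1) of the 6 secreted members, with 1 symbol per gene. Control replicate 1, at 1.51% hepatocyte reads, has the highest value of Mbl1, Mbl2, Masp2, Masp1 and Colec11 and the lowest control value of Colec10.

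Colec12 encodes a membrane-bound scavenger receptor with a lectin domain, known from vascular endothelium. It lies on chromosome 18 at 9707648 to 9877995. Colec12 was at 723.0, 949.1 and 564.0 in the 3 controls and at 567.7, 322.8 and 498.3 in the 3 cKO libraries. The groups overlapped narrowly, since the lowest control lay just below the highest cKO library. The log2 fold change of Colec12 was -0.69 ± 0.26 (SE, 3 animals per group), the 95% interval was -1.28 to -0.11 and the limma adjusted p was 0.284. Without control replicate 1 it was -0.70.

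By the deposited gene lengths, Colec12 was the most abundant member per 1000 bases in 5 of the 6 libraries. Its annotated transcripts share stretches of up to 417 bases at 95% identity or more with those of 196 other genes, so its counts may be uncertain. Whether those stretches lie within the counted bases was not looked up. Colec12 has 8725 exon bases in GENCODE vM21 and 3322 in the deposited table, whose length is used here unless said otherwise. By its exon bases Colec12 was first in 3 libraries only, behind Colec10 in control replicate 3 (64.6 against 76.0) and Colec11 in cKO replicate 2 (37.0 against 47.5). Summed reads on 5 blood endothelium markers were 0.0366 to 0.0562% in controls and 0.0451 to 0.0532% in cKO libraries. Those on 7 stromal fibroblast markers were 0.845 to 1.32% and 1.04 to 1.45%.

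Masp1 encodes the protease that activates its partner on lectin complexes, and by alternative splicing also the MASP3 protease and a truncated inhibitor. Counts per gene do not separate these products. Masp1 (chromosome 16, 23449417 to 23520815) was at 527.9, 153.7 and 113.9 in the 3 controls and at 132.9, 193.1 and 265.2 in the 3 cKO libraries. The groups overlapped, with control replicate 1 highest. The log2 fold change of Masp1 was -0.15 ± 0.56 (SE, n = 3 per group), with a limma adjusted p of 0.943 and an interval from -1.46 to 1.17. Its direction turned without control replicate 1 (0.52, interval -0.24 to 1.27, adjusted p = 0.469) and without cKO replicate 1 (0.11, adjusted p = 0.971).

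Masp2 encodes the protease that cleaves C4 and C2. The gene lies on chromosome 4 at 148602554 to 148615499 on the plus strand. Masp2 had 167, 20 and 19 reads in control replicates 1 to 3 and 3, 10 and 9 in cKO replicates 1 to 3, which are normalised counts of 203.6, 18.0 and 16.9 against 2.79, 9.75 and 9.94. All 3 cKO libraries lay below the controls, as they did for 10.5% of all genes tested. The log2 fold change of Masp2 was -2.43 ± 1.00 (SE, n = 3 per group), and limma gave an adjusted p of 0.325.

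In the comparison of the authors' deposited table, Masp2 is lower in cKO at -3.41 on the log2 scale with adjusted p = 0.00807, one of the 2.34% of its genes called lower. DESeq2, which called 5.52% of all genes with an adjusted p, called it too (-3.41, adjusted p = 0.0126), but not without control replicate 1 (-1.22, adjusted p = 0.61). The control mean of Masp2 was 10.6 times the cKO mean with all libraries and 2.33 times without control replicate 1, where the limma log2 fold change was -1.27 (interval -3.33 to 0.78) with an adjusted p of 0.519. Exons of Tardbp on the opposite strand cover 54.9% of the Masp2 exons, where reads without strand could belong to either gene. Tardbp itself ranged from 2159 to 2516 in the cKO libraries and from 2189 to 2525 in controls.

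**Figure D3:**
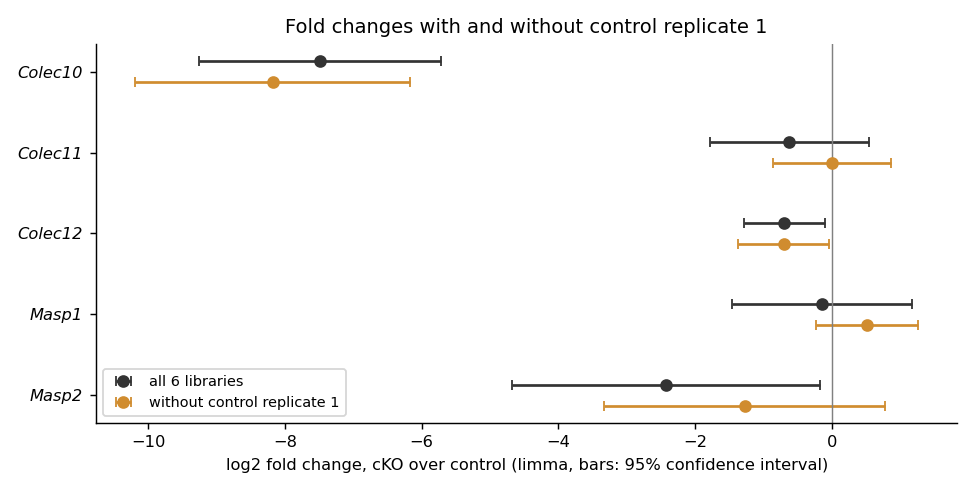
Fitted log2 fold change (cKO over control) of the 5 genes that passed the filter, with 95% confidence intervals, from all 6 libraries (black) and without control replicate 1 (orange). Colec10 was chosen for having no cKO read, so its points and intervals are a description and no test. Colec11 moves from -0.62 to 0.003, and Masp2 moves from -2.43 to -1.27 with an interval that then spans 0.

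None of the 4 relatives tested passed limma, where 1.16% of all genes were called. Colec12 and Masp2 had an unadjusted p under 0.05, as did 13.7% of all genes. EdgeR called 0 of the 4, where it called 0.926% of all genes, and DESeq2 called Masp2, where it called 5.52%. Per 1000 bases of deposited length, the order of the members in control replicates 2 and 3 was Colec12, Colec10, Colec11 and Masp1. With all 3 controls the ranges of Colec10 (14.6 to 76.0) and Colec11 (39.9 to 158.7) overlapped. Masp2 followed at 5.44 and 5.11, and Mbl1 and Mbl2 were at 0 except Mbl2 at 6.46 in control replicate 3. In control replicate 1 it was Mbl2 (584.7), Mbl1 (285.8), Colec12 (217.6), Colec11 (158.7), Masp2 (61.6), Masp1 (53.7) and Colec10 (14.6). In the cKO libraries Colec12 (97.2 to 170.9), Colec11 (32.7 to 51.0), Masp1 (13.5 to 27.0) and Masp2 (0.843 to 3.01) did not overlap. Colec10 was second among the members in 2 of the 3 control libraries and last in the other. With the GENCODE exon bases Colec12 was at 37.0 to 65.1 in the cKO libraries, a range that overlaps that of Colec11, and Colec10 was first in control replicate 3.

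Class A scavenger receptors related to Colec12 (4 genes, not complement genes) were read together with the rest of the complement system, as 7 complement lists. The lists hold 53 genes, 51 of them listed and 44 tested. Limma called none in either direction, 11 had an unadjusted p under 0.05 (13.7% of all genes tested did), and edgeR called 0. Of the 38 with an adjusted p in DESeq2, C1qa, C1qb, C1qc and Itgam were called higher and Cpn1 lower, where DESeq2 called 5.52% of all genes. Without control replicate 1, a DESeq2 fit chosen after seeing the data called 9 higher and 2 lower of the 44, and 7.62% of all genes, with C1qa, C1qb, C1qc and Itgam again among the higher and Cpn1 no longer called. The median log2 fold change over the 44 was 0.21, against 0.002 over all genes tested. The highest of the 6 libraries was control replicate 1 for 23 of the 51 genes (45.1%), against 21.3% of all genes tested and 5 of the 7 members.

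Among other soluble sensors of the lectin pathway, only the ficolin gene Fcna was tested. Fcna was at 273.1, 98.9 and 56.9 in the 3 controls and at 127.3, 137.5 and 59.7 in the 3 cKO libraries, with overlapping groups (log2 fold change -0.19, limma adjusted p = 0.926). Its direction turned without control replicate 1 (0.43, adjusted p = 0.676) and without cKO replicate 3 (0.19, adjusted p = 0.953). The collectin gene Sftpd, which encodes lung surfactant protein D, was at 89.0 in control replicate 1 and at most 9.29 elsewhere. In the classical pathway, whose sensor C1q is made by macrophages, 0 of 6 tested genes passed and the median log2 fold change was 0.73. C1qc was at 1949 to 2099 in controls and 2913 to 3747 in cKO animals (0.71 ± 0.16, limma adjusted p = 0.0754), and C1qb had a log2 fold change of 0.74 ± 0.19 (0.13). Reads on 6 macrophage markers summed to 0.0333 to 0.0546% in controls and 0.0542 to 0.0714% in cKO libraries, with none at 0, and their part in the C1q values was not tested.

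Of 7 tested convertase genes, which supply the enzymes that cleave C3 and C5, none passed, with a median of 0.44 that ran from 0.18 (without cKO replicate 1) to 0.60 (without control replicate 1) with 1 library left out. The smallest p values were those of properdin, Cfp (0.44 ± 0.18, limma adjusted p = 0.331), and factor B, Cfb (2.09 ± 1.20, 0.5). Of 8 tested complement receptors none passed, with a median of 0.77 that was 0.50 without control replicate 1 and 0.41 without control replicate 3. Itgam and C5ar1 had log2 fold changes of 0.62 ± 0.16 and 0.63 ± 0.17 (limma adjusted p = 0.117 and 0.143). Of 13 tested regulators none passed, with a median of -0.06 that became 0.43 without control replicate 1, 0.15 without control replicate 2, 0.02 without cKO replicate 2, -0.20 without cKO replicate 1 and -0.21 without control replicate 3. Among these were the decay-accelerating factor gene Cd55 (0.52 ± 0.20, adjusted p = 0.3) and the carboxypeptidase subunit gene Cpn1 (-3.50 ± 1.47, 0.358).

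The terminal pathway, which assembles the membrane attack complex, had the lowest median, -1.29 over 5 tested genes, again with no call. It ran from -3.38 (without control replicate 2) to -1.14 (without control replicate 1) with 1 library left out. Its 7 genes summed to 0.0379% of reads in control replicate 1, against 0.00121 to 0.00163% elsewhere, and 6 of the 7 were highest in that library. The C5 gene Hc was at 2145, 80.9 and 23.1 in the 3 controls and at 4.65, 7.80 and 3.31 in the 3 cKO libraries. Its log2 fold change was -4.76 ± 1.56 (limma adjusted p = 0.254). All 3 cKO libraries lay below the controls for Hc, as they did for 10.5% of all genes tested. Without control replicate 1, DESeq2 called Hc lower (-3.30, adjusted p = 0.00846). C7 was the exception that was not highest there, with 47.6, 63.8 and 77.4 in controls against 31.6, 10.7 and 43.1 in the cKO libraries (-1.29 ± 0.56, 0.352). The 4 class A scavenger receptor genes related to Colec12 had a median of -0.002 (-0.25 to 0.23 with 1 library left out, 0.12 without control replicate 1) and no call, with Msr1 at 0.28 ± 0.41 and Marco at -0.48 ± 0.84.

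**Figure D4:**
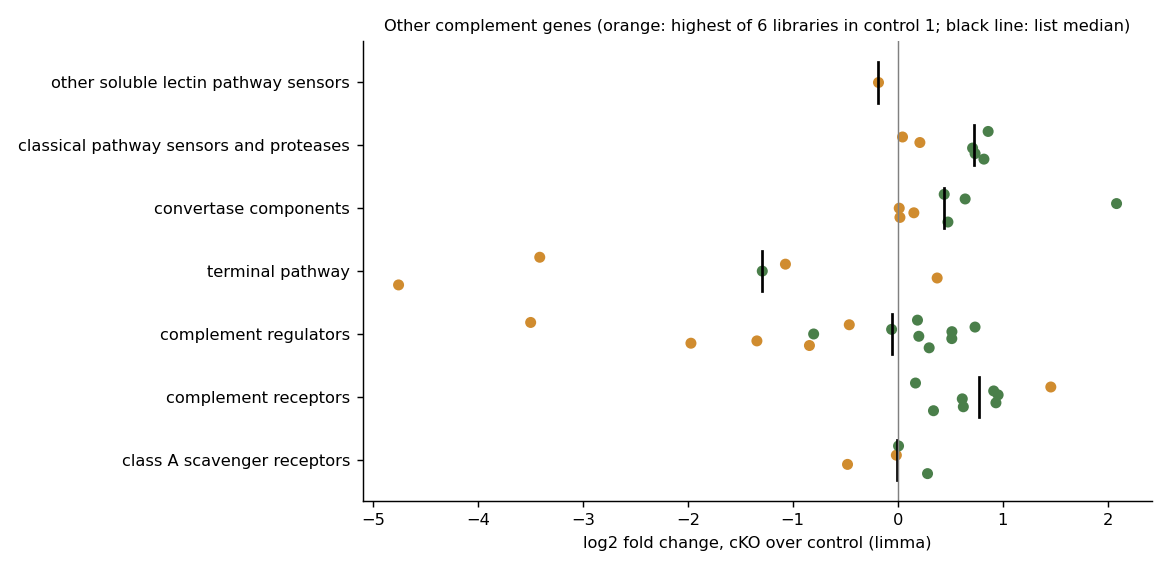
Fitted log2 fold change (cKO over control) of the 44 tested complement and class A scavenger receptor genes outside the family. Genes are shown by list, 1 point per gene, with a black line at each list median. Orange points had their highest value in control replicate 1, and the 4 of them in the terminal pathway include Hc at -4.76.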

How the data were processed

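Total RNA of whole uteri was sequenced from 3 control and 3 cKO animals. Per the submitters' processing notes, HISAT2, SAMtools and featureCounts were used, with the build given as GRCm39. Coordinates are read as GRCm38, since 25239 of the 25988 genes matched to GENCODE vM21 had the same start and end there. The sources used here give neither the strand setting nor the handling of multiply matched reads. The sample columns hold a signal that the authors deposited after dividing each library's counts by its size factor. Dividing by the smallest step returned whole reads for 100% of values (tolerance 0.01 reads). Other deposited columns give the authors' log2 fold changes, p-values, group means and gene lengths. Dates in place of 24 symbols were restored by gene identifier.

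The test was limma 3.58.1 (R 4.3.3) on log2(value + 1) with trend and robust settings, control against cKO without covariates, after edgeR 4.0.16 filterByExpr, with Benjamini-Hochberg adjustment over all 16314 genes and a threshold of 0.05. Alternatives were pseudocounts of 0.5 and 5, no filter, TMM scaling, edgeR's quasi-likelihood test and DESeq2 1.42.0 on the recovered reads, a replicate block, and leaving out each library, with DESeq2 without control replicate 1 added after seeing the data. In simulated reads for this comparison, limma called 69.4% of 49 genes changed 4-fold, 12.2% of 49 changed 2-fold and 11 of 15778 unchanged genes. Replicates differed by far more than sampling noise (chi-square per gene of 21.1 or more), so none was counted as a repeat. Limits of 3 reads cover counting error only, because PCR reads are not independent molecules.

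The members and all gene lists were chosen with earlier results of these data known. Named genes are the 7 members, the 2 tested genes with the smallest p in each complement list, the 6 protein-coding genes (10 or more reads on average) most correlated with Colec10, and the 5 highest genes with no cKO read. Some genes that these rules take are not reported here. Sftpd, and genes called in an alternative, were named after their values were seen. Overlapping exons and near-identical transcripts (blastn, at least 95% over at least 100 bases) were looked up for each member.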

Additional observations from a re-analysis of the deposited data

How the results depend on the processing

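Same-numbered animals of the 2 groups were not treated as paired: the correlations of their deviations were 0.00843, -0.176 and 0.0438 for replicates 1 to 3. Such correlations cannot show whether the animals were paired by design. With a replicate block, 149 genes were lower and 34 higher, against 145 and 45 without it, no complement list gene was called, and the log2 fold changes were those given above (Colec10 -7.48, Colec11 -0.62, Colec12 -0.69, Masp1 -0.15, Masp2 -2.43) with no relative called. Under the block 4 of the 6 smooth muscle markers (not Cnn1 and Actg2) and, of the neuron genes, Snap25 without Syt1 were lower. DESeq2 called 578 lower and 280 higher genes, or 848 and 453 without control replicate 1 (a fit chosen after seeing the data), and 82 were higher with no filter. Leaving out 1 library at a time gave 42 to 347 lower genes (47 without cKO replicate 2, 347 without control replicate 1) and 1 to 117 higher genes. In the complement lists DESeq2 called 1 lower and 4 higher genes (2 and 9 without control replicate 1), and leaving out 1 library gave 0 to 1 lower (1 without control replicate 3) and 0 to 2 higher (Itgax 2.11 and Itgb2 1.92, without control replicate 2).

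The fitted log2 fold change of Colec10 was -5.20 with a pseudocount of 5, -10.80 in edgeR and -10.22 in DESeq2 (-10.64 without control replicate 1), and -8.18 to -7.00 with 1 library left out. It follows the value added to a count of 0. Those of the relatives with 1 library left out were -0.98 to 0.0026 for Colec11 (0.0026 without control replicate 1), -0.88 to -0.45 for Colec12, -0.59 to 0.52 for Masp1 (0.52 without control replicate 1 and 0.11 without cKO replicate 1) and -3.03 to -1.27 for Masp2 (-1.27 without control replicate 1). In DESeq2 without control replicate 1, Colec11 and Masp1 were at 0.030 and 0.56. Masp2 passed in DESeq2 with all libraries alone (-3.41). The cause of these moves was not tested. Genes with 0 cKO reads numbered 38 at a minimum of 5 control reads, 1 at 20, and 13 when 1 read per cKO library was allowed. Depth limits Mbl1, Mbl2 and Masp2, whose values outside control replicate 1 rest on 0 to 20 reads.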

Other observations

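Complement genes of other cell types also followed single libraries. Cfd, which encodes the adipocyte protease adipsin, was highest in cKO replicate 1 (9371) and control replicate 2 (4439), and at 1431 to 2219 in the other 4 libraries. The same 2 libraries had the highest summed share of 4 adipocyte markers, 0.00775 and 0.00737%, against 0.00135 to 0.00209% elsewhere. The leukocyte integrin genes Itgax and Itgb2 were highest in control replicate 2, at 2588 and 3230. Of the 6 macrophage markers, Cd68 (2321) and Adgre1 (604.8) were also highest there, whereas Mrc1 (1277) and Fcgr1 (268.7) had their lowest value of the 6 libraries. In the other controls Itgax was at 212.2 and 259.8 and Itgb2 at 430.4 and 376.3, while in cKO animals they ran from 701.1 to 1249 and from 1117 to 1925. Without control replicate 2, Itgax and Itgb2 had limma adjusted p values of 0.016 and 0.0138, both higher in cKO.

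The membrane attack complex genes C8a, C8b and C9 were at 1792, 324.3 and 1002 in control replicate 1 and at most 18.7, 8.99 and 27.6 in any other library. For Mbl1, a gene with reads in control replicate 1 only, the authors' deposited table has -21.59 on the log2 scale and no p-value. Of the 10 genes with 0 cKO reads and at least 10 reads in each control, Mslnl and Nek10 had control means of 20.3 and 19.99, and 3 were antisense or long intergenic RNA genes.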
